A study of Mus musculus with 19 samples.

Results

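The enzymes and transporters that build and sulfate the glycan chains of proteoglycans were followed across 6 sorted skeletal cell populations of neonatal mouse limbs. They were taken by gene symbol: the carbohydrate sulfotransferases (Chst), chondroitin synthases and polymerizing factors (Chsy, Chpf), chondroitin N-acetylgalactosaminyltransferases (Csgalnact), xylosyltransferases (Xylt), exostosins (Ext, Extl), the heparan sulfate sulfotransferases (Ndst, Hs2st1, Hs3st, Hs6st), the endosulfatases Sulf1 and Sulf2, the sulfate donor synthases Papss1 and Papss2, the epimerases Dse and Dsel, the uronyl 2-sulfotransferase Ust and the sulfate transporter Slc26a2. This rule found 47 of the 18193 genes measured, and it uses gene symbols alone. Each gene was read from 1 Affymetrix probe set, the brightest by its mean across the 18 arrays of neonatal cells, on a log2 scale, so a difference of 1 is a factor of 2.

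A proteoglycan is a protein that carries long, unbranched sugar chains called glycosaminoglycans. Chondroitin sulfate and heparan sulfate chains are started on a serine of the core protein by a short linkage sugar sequence, lengthened by polymerases in the Golgi, and then decorated with sulfate by sulfotransferases that all draw on the donor PAPS (3'-phosphoadenosine 5'-phosphosulfate). Cartilage matrix is rich in chondroitin sulfate carried by aggrecan, and failures of sulfate uptake or activation cause chondrodysplasias in humans and mice. Heparan sulfate, whose sulfate pattern is set in the Golgi and trimmed outside the cell by endosulfatases, binds many growth factors of the growth plate.

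The cells came from fore and hind limbs of mice at postnatal day 3, from a pooled litter; the genotype field calls them wild type and the growth protocol calls the mice GFP-labeled. All sorted cells shared the gate CD45-Ter119-Tie2-AlphaV+, which removes blood and endothelial cells and keeps cells with integrin alpha V. Thy (CD90, a surface protein of many stromal cells), 6C3 (the aminopeptidase encoded by Enpep) and CD105 (endoglin, encoded by Eng) divided them into 3 states, Thy+6C3-, Thy-6C3+ and Thy-6C3-, each of which was sorted into CD105+ and CD105- cells, which makes 6 populations with 3 arrays each. The labels do not say that replicates came from separate animals, so p-values measure only the spread between these samples. The steps read below are single-antigen differences: Thy+ minus Thy- in 6C3- cells, 6C3+ minus 6C3- in Thy- cells, and CD105+ minus CD105- in each of the 3 Thy and 6C3 states. The Thy and 6C3 steps of the same CD105 state share the Thy-6C3- arrays as their lower end, so their results are not independent of each other. A further array, from adult cells labelled Thy+6C3+CD105+, entered no test.

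Transcript levels of the sorted antigens followed the gates, with 1 reservation. Thy1 lay between 9.99 and 10.47 in Thy+ arrays and between 4.96 and 5.95 in Thy- arrays, and Enpep lay between 10.69 and 11.24 in 6C3+ arrays and between 6.20 and 8.83 in 6C3- arrays. Eng read 8.34 to 8.75 on Thy+6C3-CD105+ arrays and 7.51, 7.61 and 8.58 on Thy+6C3-CD105- arrays. The high value was that of replicate 3, which correlated least with its group (mean r of 0.936, where the other samples had 0.956 to 0.990). The titles of a pair of Thy-6C3+CD105- samples, replicates 2 and 3, name Thy+, but their Thy1 levels of 5.78 and 5.95 were those of Thy- arrays, and they were grouped by the population field. Markers moved with the groups. The median of 10 chondrocyte genes averaged 11.2 with Thy, 12.4 with 6C3 and 13.04 with neither in CD105+ cells. In CD105- cells it averaged 10.6 with Thy, 12.1 with 6C3 and 13.2 with neither. Not every gene kept that order: Matn1 averaged 8.08 with Thy and 5.59 with 6C3 in CD105+ cells, and 6.13 and 4.46 in CD105- cells. Between Thy+ and 6C3+ cells limma called 1 of the 10 higher with Thy in each CD105 state. It called 4 lower in CD105+ cells and 5 lower in CD105- cells, in a comparison added after the values were seen.

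In Thy+ cells the sulfate supply genes Slc26a2 and Papss2, the chondroitin initiation enzyme Csgalnact1, the chondroitin 4-O-sulfotransferase Chst11 and the exostosin relative Extl1 were expressed at lower levels than in Thy-6C3- cells, while the heparan endosulfatase Sulf1, the chondroitin 6-O-sulfotransferase Chst7 and the N-acetylglucosamine 6-O-sulfotransferase Chst5 were expressed at higher levels. In 6C3+ cells the estimated changes from Thy-6C3- cells had the same signs for these 8 genes and were smaller, except for Extl1 in CD105- cells, and all but that of Chst7 in CD105+ cells passed the test. Whether fewer cells of a type or less RNA per cell underlies a difference in such sorted populations cannot be told apart. In the Thy step of CD105+ cells 5 of 47 genes rose and 5 fell, 21.3% of the group, where 6.66% of all genes passed the test in either direction (4.03% higher and 2.63% lower). In the Thy step of CD105- cells 6 rose and 10 fell, 34.0% of the group against 18% of all genes (10.5% higher and 7.45% lower). The 6C3 step called 2 higher and 5 lower in CD105+ cells, 14.9% against 1.36% of all genes (0.561% higher and 0.797% lower). In CD105- cells it called 4 higher and 5 lower, 19.1% against 2.74% (1.24% higher and 1.5% lower). Levels of the compared arrays did not overlap for 7 higher and 12 lower genes in the Thy step of CD105+ cells (14.4% and 11.8% of all genes), 9 and 11 in that of CD105- cells (23% and 11.7%), 6 and 7 in the 6C3 step of CD105+ cells (9.31% and 6.96%) and 7 and 6 in that of CD105- cells (11% and 6.61%). The median log2 change of the 47 genes nevertheless lay near that of all genes, at -0.11 against -0.02 in the Thy step of CD105+ cells, -0.02 against 0.13 in that of CD105- cells, 0.00 against 0.00 in the 6C3 step of CD105+ cells and 0.07 against 0.07 in that of CD105- cells. The changes thus lay in a minority of the 47 genes and ran in both directions. In the Thy step of CD105- cells the 6 of 47 that rose were near the 10.5% of all genes that did. The rises without overlap in both Thy steps (7 and 9 of 47) were near or below the shares of all genes (14.4% and 23%).

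**Figure D1:**
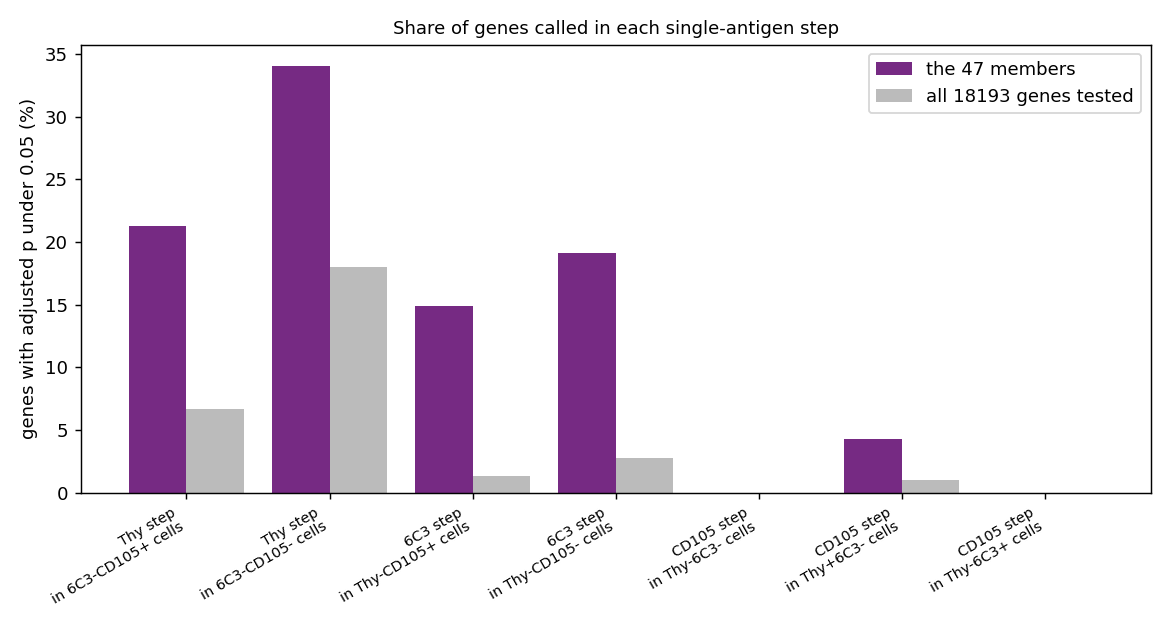
Share of genes called by limma (Benjamini-Hochberg adjusted p under 0.05) in the 7 single-antigen steps, in percent, for the 47 glycan synthesis and sulfation genes and for all 18193 genes. The Thy and 6C3 steps called 14.9% to 34.0% of the 47 genes, and 2 of the 3 CD105 steps called none.

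Scaling mattered for how calls divided by direction. In the Thy step of CD105- cells the median change of all genes was 0.13 after quantile normalization, 0.09 on the values as deposited and -0.05 when array medians were set equal, and the calls divided into 6 higher and 10 lower, 5 higher and 14 lower, and 3 higher and 15 lower under these scalings. In the 6C3 step of CD105+ cells setting array medians equal left 0 higher and 3 lower, and in that of CD105- cells it left 1 higher and 5 lower, where the values as deposited gave 2 higher and 5 lower. The 44 calls of the 7 steps kept their sign in all settings tried, and 15 of them passed the test in every setting. A fit on the arrays of the compared populations alone lost 13 calls: Chst1, Chsy1, Dse, Hs3st2, Ndst3 and Sulf2 in the Thy step of CD105- cells, Csgalnact1 in the 6C3 step of CD105+ cells, Chst5, Chst7, Sulf1 and Sulf2 in that of CD105- cells, and Chst5 and Ndst3 in the CD105 step of Thy+6C3- cells.

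**Figure D2:**
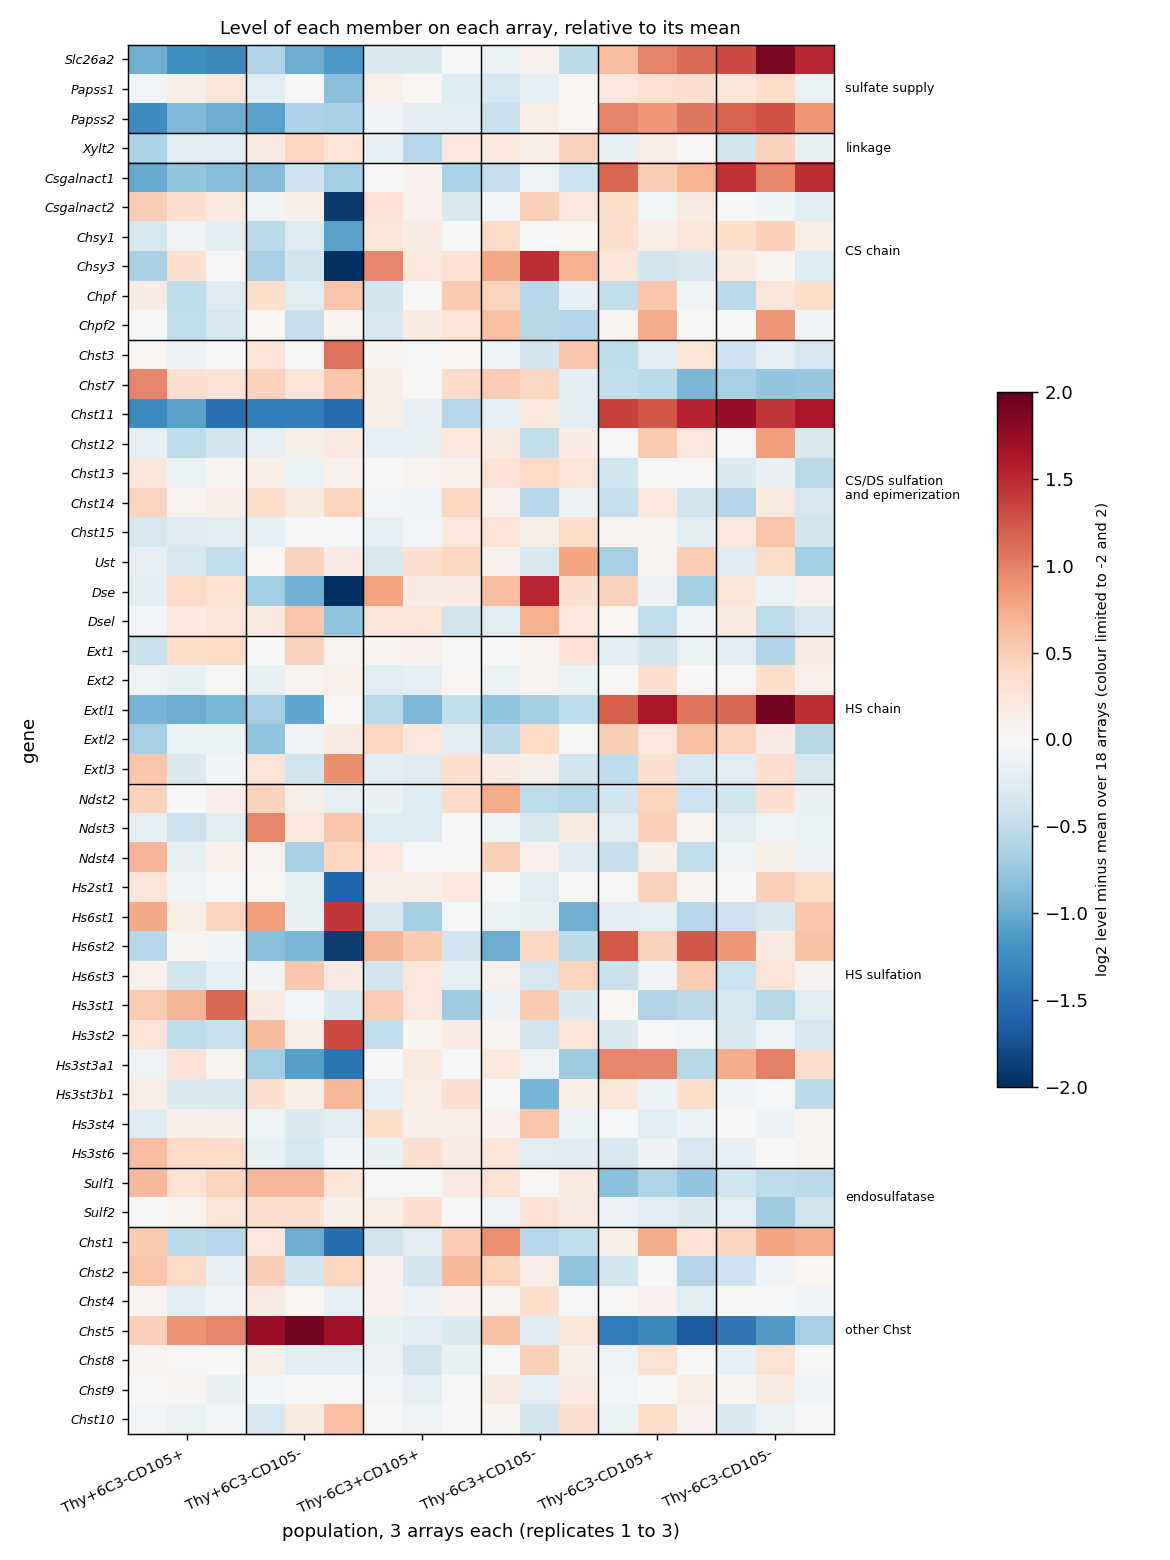
Level of each of the 47 genes on each of the 18 neonatal arrays, as the difference from that gene's own mean (log2), with genes in rows by role and arrays in columns from Thy+ through 6C3+ to Thy-6C3- populations. Slc26a2, Papss2, Csgalnact1, Chst11 and Extl1 ran highest in the 6 Thy-6C3- arrays, and Chst5, Chst7 and Sulf1 had their highest population means in Thy+ cells.

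Of the 3 sulfate supply genes 2, Slc26a2 and Papss2, fell in all 4 Thy and 6C3 steps. The transporter Slc26a2, which carries sulfate into chondrocytes and whose loss causes chondrodysplasia in humans, read 8.28, 8.02 and 7.97 on Thy+6C3-CD105+ arrays, 8.97, 8.96 and 9.23 on Thy-6C3+CD105+ arrays and 9.87, 10.24 and 10.39 on Thy-6C3-CD105+ arrays. Without CD105 it read 8.66, 8.26 and 8.11 on Thy+6C3- arrays, 9.12, 9.34 and 8.73 on Thy-6C3+ arrays and 10.57, 11.14 and 10.77 on Thy-6C3- arrays. Every Thy-6C3- array lay above every Thy+ and every 6C3+ array. The log2 change with Thy was -2.08 in CD105+ cells (4.22-fold lower, adjusted p = 6.04e-06) and -2.48 in CD105- cells (5.59-fold lower, adjusted p = 6.57e-07). The change with 6C3 was -1.77 in CD105- cells (3.40-fold lower, adjusted p = 8.91e-05) and -1.12 in CD105+ cells (2.17-fold lower, adjusted p = 0.0114). The standard error was 0.22 in each, since all groups hold 3 arrays and share 1 estimate of the spread. The last of these calls did not survive leaving out Thy-6C3-CD105+ replicate 3 (-1.005, adjusted p = 0.0951) or either of replicates 1 and 2 of Thy-6C3+CD105+. It also missed the threshold on values as deposited (adjusted p = 0.0502), with array medians set equal (0.0616) and with the mean of probe sets (-0.85, adjusted p = 0.0638). A second probe set of Slc26a2 changed by -2.19, -2.86, -1.32 and -1.78 in the Thy steps of CD105+ and CD105- cells and the 6C3 steps of CD105+ and CD105- cells, and another, with a mean of only 6.28, changed by -0.41, -0.32, -0.10 and -0.55.

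Papss2, the PAPS synthase that is mutated in brachymorphic mice, read 9.46, 9.81 and 9.71 on Thy+6C3-CD105+ arrays, 10.62, 10.49 and 10.46 on Thy-6C3+CD105+ arrays and 11.68, 11.55 and 11.75 on Thy-6C3-CD105+ arrays. In CD105- cells the levels were 9.60, 10.08 and 10.04 with Thy, 10.25, 10.84 and 10.73 with 6C3 and 11.87, 11.96 and 11.57 with neither. The 3 states formed separate bands in both CD105 states, with Thy+ arrays lowest and Thy-6C3- arrays highest. Papss2 changed by -2.001 with Thy in CD105+ cells (SE 0.18, 4.00-fold lower, adjusted p = 1.73e-06) and by -1.89 in CD105- cells (3.71-fold lower, adjusted p = 2.40e-06). With 6C3 it changed by -1.14 in CD105+ cells (2.20-fold lower, adjusted p = 0.00263) and by -1.20 in CD105- cells (2.29-fold lower, adjusted p = 0.000799). No single left-out array removed any of these 4 calls, and in the order given for Slc26a2 a second probe set changed by -2.09, -2.25, -1.10 and -1.40. Another changed by -2.54, -3.45, -1.43 and -2.49, of which -1.43 did not pass (adjusted p = 0.239). A further probe set, with a mean of only 3.79, changed by -0.43, 0.04, -0.34 and 0.28. Papss1, the other PAPS synthase, passed no test in any step, and its levels over the 18 arrays spanned 9.96 to 11.17.

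Among the enzymes that start and lengthen the chains, the initiating transferase Csgalnact1 changed most regularly. Xylt2, which adds the first linkage sugar, was not called in any step. Xylt1, the other xylosyltransferase, was not among the genes analysed, so chain initiation was read from Xylt2 alone. Csgalnact1, which adds the first N-acetylgalactosamine and so commits a linkage to chondroitin, read 7.81, 8.05 and 7.97 on Thy+6C3-CD105+ arrays, 8.78, 8.91 and 8.19 on Thy-6C3+CD105+ arrays and 9.96, 9.31 and 9.52 on Thy-6C3-CD105+ arrays. Its levels in CD105- cells were 7.95, 8.40 and 8.12 with Thy, 8.36, 8.71 and 8.39 with 6C3 and 10.26, 9.78 and 10.30 with neither. Thy-6C3- arrays were the highest in both CD105 states and overlapped neither other state. The changes were -1.65 (SE 0.23, 3.14-fold lower, adjusted p = 0.000125) with Thy in CD105+ cells, -1.96 (3.88-fold lower, adjusted p = 2.11e-05) with Thy in CD105- cells and -1.63 (3.09-fold lower, adjusted p = 0.000384) with 6C3 in CD105- cells. With 6C3 in CD105+ cells the change was -0.97 (1.96-fold lower, adjusted p = 0.0457). That call was lost without any one of 11 arrays, most of all without Thy-6C3+CD105+ replicate 3 (-0.75, adjusted p = 0.287). It was also lost under both other scalings, with the mean of probe sets and with the replicate block (adjusted p of 0.0675 to 0.382), and with grouping by title. A second probe set of Csgalnact1, with a mean of 6.29, changed by -1.54, -2.72, -0.96 and -1.64 in the order given for Slc26a2. Of these, -2.72 passed (adjusted p = 0.00294) and the rest did not (adjusted p of 0.120, 0.829 and 0.146).

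The chondroitin polymerase Chsy1 fell in the Thy step of CD105- cells. It read 10.86, 11.12 and 10.32 on Thy+6C3-CD105- arrays, against 11.75, 11.88 and 11.54 on Thy-6C3-CD105- arrays, a change of -0.95 (SE 0.18, 1.94-fold lower, adjusted p = 0.00207) between groups that did not overlap. In CD105+ cells its change with Thy was -0.46 (adjusted p = 0.185). Chsy3, a second chondroitin synthase, passed the F-test over the 6 populations (adjusted p = 0.0317) but no single step, and Thy+6C3-CD105- replicate 3 gave its lowest value, 4.95, against 6.90 and 7.17 on the 2 partner arrays. Csgalnact2 and the polymerizing factors Chpf and Chpf2 were called in 0 of 7 steps.

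Of the 10 genes of chondroitin and dermatan sulfation and epimerization, 3 were called. Chst11, the main chondroitin 4-O-sulfotransferase of cartilage, fell in all 4 Thy and 6C3 steps, Chst7, which puts sulfate on carbon 6 of N-acetylgalactosamine, rose in 3 of them, and Dse fell in 1. Chst11 read 8.75, 8.95 and 8.52 on Thy+6C3-CD105+ arrays, 10.15, 9.85 and 9.44 on Thy-6C3+CD105+ arrays and 11.39, 11.26 and 11.55 on Thy-6C3-CD105+ arrays. In CD105- cells it read 8.63, 8.66 and 8.48 with Thy, 9.84, 10.24 and 9.78 with 6C3 and 11.77, 11.44 and 11.63 with neither. The 3 states lay in separate bands, Thy+ lowest, 6C3+ between and Thy-6C3- highest. Its changes were -2.67 with Thy in CD105+ cells (SE 0.19, 6.34-fold lower, adjusted p = 1.15e-07), -3.02 with Thy in CD105- cells (8.13-fold lower, adjusted p = 1.74e-08), -1.59 with 6C3 in CD105+ cells (3.00-fold lower, adjusted p = 0.000164) and -1.66 with 6C3 in CD105- cells (3.17-fold lower, adjusted p = 5.44e-05). All 4 calls stood in each of the 28 settings run. A second probe set of Chst11, with a mean of 5.30, changed by -1.38, -1.89, -1.07 and -1.61 in the same order.

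Chst7 read 7.85, 7.20 and 7.16 on Thy+6C3-CD105+ arrays, 7.003, 6.90 and 7.25 on Thy-6C3+CD105+ arrays and 6.40, 6.35 and 5.95 on Thy-6C3-CD105+ arrays. The CD105- arrays gave 7.33, 7.15 and 7.42 with Thy, 7.39, 7.29 and 6.65 with 6C3 and 6.22, 6.10 and 6.11 with neither. Thy-6C3- arrays were the lowest in both CD105 states, and Thy+ and 6C3+ arrays overlapped. It changed by 1.17 with Thy in CD105+ cells (SE 0.23, 2.25-fold higher, adjusted p = 0.00339) and by 1.16 in CD105- cells (2.23-fold higher, adjusted p = 0.00298). With 6C3 the change was 0.97 in CD105- cells (1.96-fold higher, adjusted p = 0.0296) and 0.82 in CD105+ cells (adjusted p = 0.124). The 6C3 call was lost without any one of the 3 Thy-6C3-CD105- arrays or without Thy-6C3+CD105- replicate 1 or 2, with an adjusted p of at most 0.119, and with grouping by title (adjusted p = 0.0708).

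Dse, the epimerase that turns glucuronic into iduronic acid and so makes dermatan sulfate, fell in 1 step. It read 6.13, 5.86 and 4.50 on Thy+6C3-CD105- arrays, against 7.07, 6.69 and 6.91 on Thy-6C3-CD105- arrays. The groups did not overlap, but replicate 3 stood far below its partners. The change of -1.39 (SE 0.40, 2.63-fold lower, adjusted p = 0.0235) became -0.89 (adjusted p = 0.125) without that array, and the call was also lost without Thy-6C3-CD105- replicate 1 or 3. Of the other genes in this role, the 4-O-sulfotransferases Chst12, Chst13 and the dermatan-specific Chst14, the 6-O-sulfotransferase Chst3, Chst15, which adds a second sulfate to 4-sulfated N-acetylgalactosamine, Ust and Dsel were called in 0 steps. Their levels spanned between 0.93 (Chst13) and 1.60 (Chst3) over the 18 arrays, against 3.29 for Chst11.

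**Figure D3:**
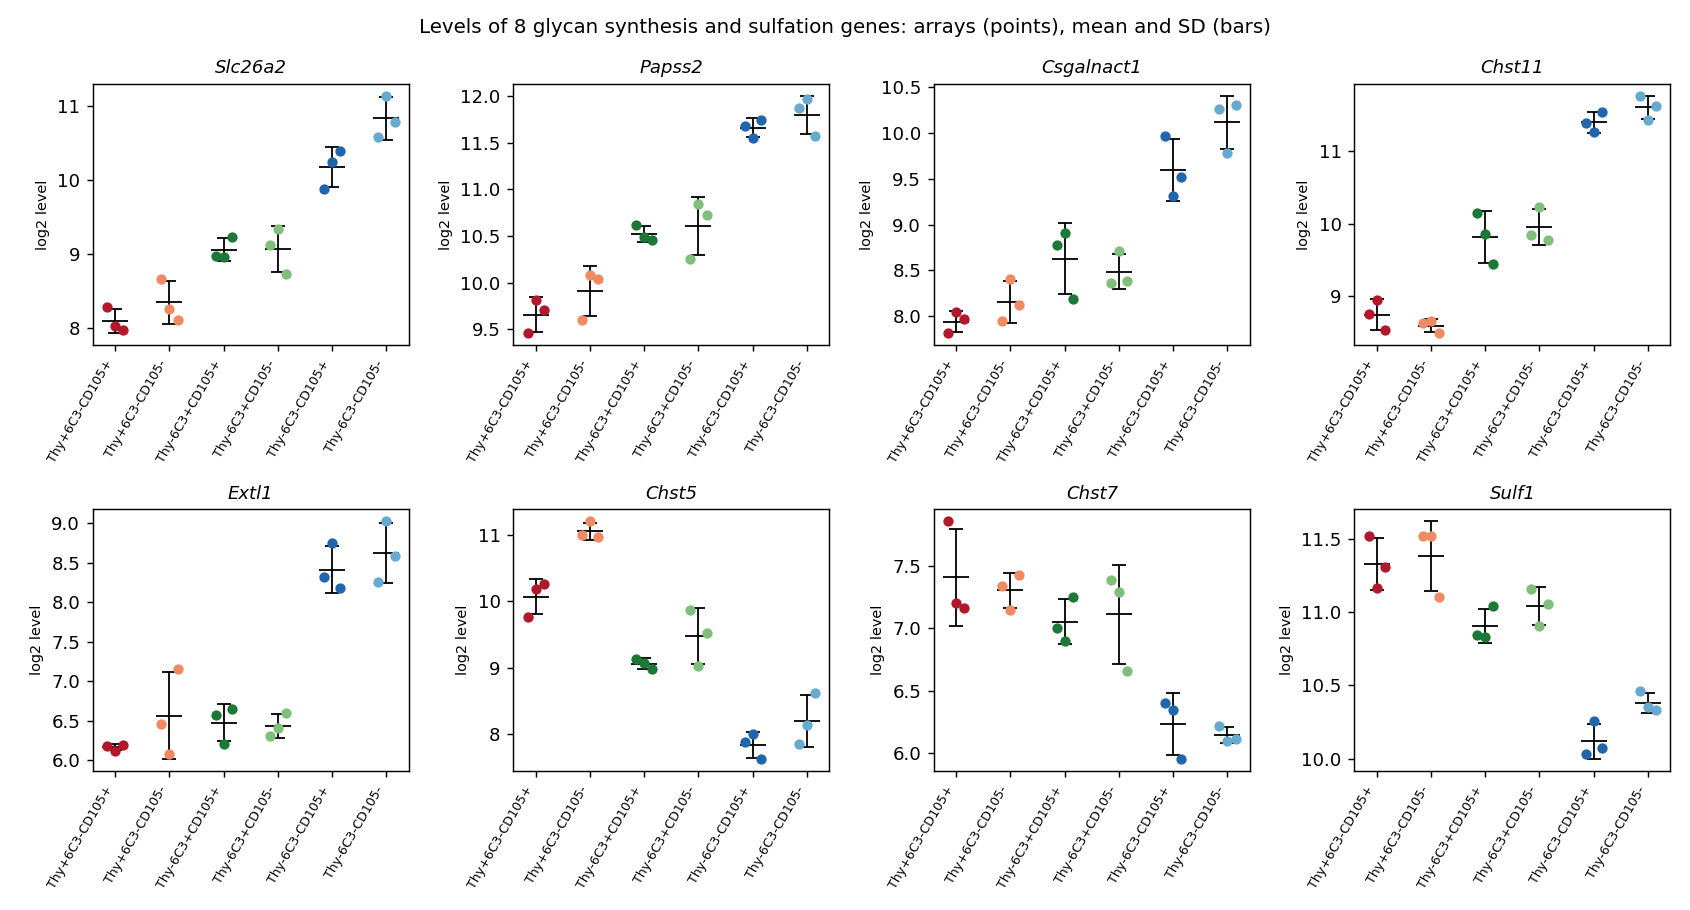
Log2 level of Slc26a2, Papss2, Csgalnact1, Chst11, Extl1, Chst5, Chst7 and Sulf1 on each array (points) with the mean of each population (bars), populations ordered from Thy+ through 6C3+ to Thy-6C3-. In CD105+ cells Chst11 averaged 8.74 with Thy, 9.82 with 6C3 and 11.40 with neither, and Chst5 ran the other way with means of 10.07, 9.06 and 7.83.

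Promoter sequences from RefSeq (GRCm38.p6) are shown for genes at both ends of this range, chosen after their values were seen: Chst11, Papss2 and Extl1, lower in Thy+ and 6C3+ cells, and Chst5, higher. Each runs 5′ to 3′ from 250 bases before to 50 bases after an annotated start, on the strand of the gene. Capitals mark GC boxes (GGGCGG or its reverse complement CCGCCC) and the Sox-type core (AACAAT or its reverse complement ATTGTT). Chst11 (chr10:82985247-82985546, plus strand) held 3 GC boxes, the first Papss2 start (chr19:32595465-32595764, plus strand) held 2, the second Papss2 start (chr19:32619755-32620054, plus strand) held 1 Sox-type core and no GC box, Extl1 (chr4:134372498-134372797, minus strand) held neither, and Chst5 (chr8:111910150-111910449, minus strand) held 3 GC boxes.
Chst11: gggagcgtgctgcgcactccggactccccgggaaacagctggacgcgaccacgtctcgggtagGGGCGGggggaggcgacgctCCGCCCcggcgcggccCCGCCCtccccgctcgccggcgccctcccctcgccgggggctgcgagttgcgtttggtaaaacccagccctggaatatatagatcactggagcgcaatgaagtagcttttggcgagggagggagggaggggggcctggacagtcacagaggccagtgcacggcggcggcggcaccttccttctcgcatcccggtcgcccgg
Papss2 start 1: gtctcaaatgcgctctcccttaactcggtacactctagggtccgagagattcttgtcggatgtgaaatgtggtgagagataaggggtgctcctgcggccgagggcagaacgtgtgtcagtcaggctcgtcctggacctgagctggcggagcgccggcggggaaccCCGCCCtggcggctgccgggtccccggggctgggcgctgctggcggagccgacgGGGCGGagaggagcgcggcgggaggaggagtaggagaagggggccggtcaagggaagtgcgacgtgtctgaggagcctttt
Papss2 start 2: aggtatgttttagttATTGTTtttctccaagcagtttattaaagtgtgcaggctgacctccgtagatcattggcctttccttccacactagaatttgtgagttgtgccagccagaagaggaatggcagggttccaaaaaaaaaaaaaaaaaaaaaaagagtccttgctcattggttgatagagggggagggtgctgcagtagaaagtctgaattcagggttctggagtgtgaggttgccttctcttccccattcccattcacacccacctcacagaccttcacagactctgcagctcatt
Extl1: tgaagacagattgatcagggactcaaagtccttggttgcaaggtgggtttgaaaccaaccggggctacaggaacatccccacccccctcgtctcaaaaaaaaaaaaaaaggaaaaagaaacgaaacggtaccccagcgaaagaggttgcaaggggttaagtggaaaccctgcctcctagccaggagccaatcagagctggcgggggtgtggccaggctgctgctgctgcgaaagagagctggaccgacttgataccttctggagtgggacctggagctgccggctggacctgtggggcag
Chst5: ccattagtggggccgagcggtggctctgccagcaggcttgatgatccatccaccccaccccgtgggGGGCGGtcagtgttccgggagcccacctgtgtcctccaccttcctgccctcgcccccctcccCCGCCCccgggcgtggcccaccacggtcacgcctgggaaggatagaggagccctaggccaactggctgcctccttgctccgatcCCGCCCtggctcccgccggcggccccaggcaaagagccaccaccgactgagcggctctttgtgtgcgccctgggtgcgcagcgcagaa

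These windows differed in base composition as well as in motifs. The share of G and C was 71.0% for Chst11, 66.3% and 44.3% for the first and second Papss2 start, 55.3% for Extl1 and 70.7% for Chst5, where the median of all 32851 promoters in the table was 52.7%. The table held a promoter for 38 of the 47 genes. GC boxes occurred in at least 1 promoter of 29 of these 38 genes (76.3%), of 57.3% of the 14453 array genes with a promoter, and in 35.7% of all promoters. The Sox-type core occurred in 4 of the 38 genes (10.5%), in 8.6% of array genes and in 10.7% of all promoters, and the TATA box (TATAAA, both strands) in 2 of 38 (5.3%), 11.5% of array genes and 13.6% of promoters. A match is a description and not a binding site, and genes that fell (Chst11) and rose (Chst5) both held 3 GC boxes.

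Of the heparan sulfate polymerases and their relatives, only Extl1 was called in the steps run. Extl1, an exostosin-like transferase of N-acetylglucosamine, read 6.18, 6.13 and 6.20 on Thy+6C3-CD105+ arrays, 6.58, 6.21 and 6.65 on Thy-6C3+CD105+ arrays and 8.32, 8.75 and 8.18 on Thy-6C3-CD105+ arrays. Its levels in CD105- cells were 6.46, 6.08 and 7.16 with Thy, 6.30, 6.42 and 6.60 with 6C3 and 8.26, 9.03 and 8.59 with neither. All 6 Thy-6C3- arrays lay above the other 12, and Thy+ and 6C3+ arrays shared one low range. The changes were -2.25 with Thy in CD105+ cells (SE 0.26, 4.75-fold lower, adjusted p = 2.01e-05), -2.06 in CD105- cells (4.17-fold lower, adjusted p = 4.86e-05), -1.94 with 6C3 in CD105+ cells (3.83-fold lower, adjusted p = 0.000485) and -2.18 in CD105- cells (4.55-fold lower, adjusted p = 7.19e-05). Ext1 and Ext2, which together form the heparan sulfate polymerase, and Extl2 and Extl3, relatives that act on the first sugars of the chain, passed no test in any step. Ext2 was among the steadiest of the 47 genes, with a span of 0.59 over the 18 arrays. The hypertrophic chondrocyte markers moved with Extl1: the median of the 4 listed genes averaged 5.11 with Thy and 5.20 with 6C3, against 8.47 with neither, in CD105+ cells, and 5.70 with Thy and 5.32 with 6C3, against 9.25 with neither, in CD105- cells. Their part in the result was not tested.

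Of the 13 heparan sulfate sulfotransferases, 2 rose and 0 fell in the Thy step of CD105+ cells, 2 rose and 2 fell in that of CD105- cells, and limma called 0 in either 6C3 step. Hs6st2, a 6-O-sulfotransferase of heparan sulfate, read 7.34, 7.27 and 6.28 on Thy+6C3-CD105- arrays, against 9.06, 8.36 and 8.77 on Thy-6C3-CD105- arrays. All 3 Thy+ arrays were lower. The change was -1.77 (SE 0.38, 3.40-fold lower, adjusted p = 0.00485), and in CD105+ cells it was -1.17 (adjusted p = 0.0807). Its 3 other probe sets had means of 4.28, 3.51 and 4.45 and changed by 0.11, 0.08 and 0.09 in CD105- cells, so the mean of all its probe sets changed by only -0.37 and was not called.

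Hs3st3a1, a 3-O-sulfotransferase, read 5.56, 5.15 and 4.78 on Thy+6C3-CD105- arrays, against 6.99, 7.26 and 6.59 on Thy-6C3-CD105- arrays. The groups did not overlap, and the change was -1.78 (SE 0.35, 3.44-fold lower, adjusted p = 0.00254). In CD105+ cells it read 6.15, 6.55 and 6.32 with Thy and 7.23, 7.21 and 5.69 without, with 1 of the Thy-6C3- arrays below all Thy+ arrays, and the change was -0.37 (adjusted p = 0.746). Hs3st1, the 3-O-sulfotransferase known for making the antithrombin-binding site of heparin, ran higher in Thy+6C3-CD105+ arrays (6.45, 6.62 and 7.09) than in Thy-6C3-CD105+ arrays (5.97, 5.34 and 5.42). That change of 1.14 (SE 0.30, 2.21-fold higher, adjusted p = 0.0247) was lost without Thy+6C3-CD105+ replicate 2 or 3 or Thy-6C3-CD105+ replicate 2 or 3, with an adjusted p of at most 0.142. In CD105- cells Hs3st1 changed by 0.30 (adjusted p = 0.485), and it did not pass the F-test over the 6 populations (adjusted p = 0.0961).

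The remaining calls of this role were small or sat at low levels. Hs3st6 averaged 7.04 ± 0.14 in Thy+6C3-CD105+ arrays and 6.32 ± 0.12 in Thy-6C3-CD105+ arrays (SD, 3 arrays each), a change of 0.72 (adjusted p = 0.0281) lost without any one of 5 of those 6 arrays (all but Thy-6C3-CD105+ replicate 2). Hs3st2 averaged 8.36 ± 0.58 in Thy+6C3-CD105- arrays and 7.41 ± 0.13 in Thy-6C3-CD105- arrays, and its change of 0.95 (adjusted p = 0.0314) was lost without Thy+6C3-CD105- replicate 3 (0.65, adjusted p = 0.151) and without Thy-6C3-CD105- replicate 1 or 3. It was also lost on values as deposited (0.61, adjusted p = 0.0700), with array medians set equal (0.46, adjusted p = 0.140), with the mean of probe sets (0.31, adjusted p = 0.141) and with array weights (0.60, adjusted p = 0.0980). Neither Hs3st6 nor Hs3st2 passed the F-test over the 6 populations (adjusted p = 0.121 and 0.181). Ndst3, an N-deacetylase and N-sulfotransferase, rose by 0.74 (adjusted p = 0.0168) in Thy+6C3-CD105- cells at a mean of 5.08 ± 0.38, against 4.34 ± 0.07 in Thy-6C3-CD105- cells. That call did not survive leaving out Thy-6C3-CD105- replicate 1 or 3 or Thy+6C3-CD105- replicate 1. Ndst2, Ndst4, Hs2st1, Hs6st1, Hs6st3, Hs3st3b1 and Hs3st4 were called in 0 steps. Ndst1 was not among the genes analysed, so N-sulfation was surveyed only in part.

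Of the 2 extracellular endosulfatases, which remove 6-O-sulfate from finished heparan sulfate chains, Sulf1 rose in all 4 Thy and 6C3 steps and Sulf2 in those of CD105- cells. All of these calls but that of Sulf1 in the Thy step of CD105+ cells depended on the scaling. Sulf1 read 11.51, 11.16 and 11.30 on Thy+6C3-CD105+ arrays, 10.84, 10.83 and 11.04 on Thy-6C3+CD105+ arrays and 10.03, 10.26 and 10.07 on Thy-6C3-CD105+ arrays. In CD105- cells it read 11.52, 11.52 and 11.11 with Thy, 11.16, 10.90 and 11.06 with 6C3 and 10.46, 10.35 and 10.33 with neither. Thy-6C3- arrays were the lowest in both CD105 states and did not overlap the others, and Thy+ arrays overlapped 6C3+ arrays in CD105- cells. The change with Thy was 1.21 in CD105+ cells (SE 0.15, 2.31-fold higher, adjusted p = 4.57e-05) and 0.998 in CD105- cells (2.00-fold higher, adjusted p = 0.000318). With 6C3 it was 0.79 in CD105+ cells (1.72-fold higher, adjusted p = 0.0119) and 0.66 in CD105- cells (1.58-fold higher, adjusted p = 0.0238). The 6C3 call of CD105+ cells was lost without Thy-6C3+CD105+ replicate 3 (adjusted p = 0.0830) or Thy-6C3-CD105+ replicate 1 or 3, and that of CD105- cells without Thy-6C3+CD105- replicate 1 (adjusted p = 0.0896) or 3 or Thy-6C3-CD105- replicate 2 or 3. With array medians set equal the Thy call of CD105- cells was lost (0.46, adjusted p = 0.137), as were the 6C3 calls of CD105+ cells (adjusted p = 0.0872) and CD105- cells (0.44, adjusted p = 0.391). The 6C3 call of CD105- cells was lost on values as deposited too (adjusted p = 0.110) and with grouping by title (adjusted p = 0.149).

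The other Sulf1 probe sets gave less. One with a mean of 9.32 changed by 0.97, 1.20, 0.92 and 0.94 in the Thy steps of CD105+ and CD105- cells and the 6C3 steps of CD105+ and CD105- cells, of which 1.20 passed (adjusted p = 0.0286) and the rest did not (adjusted p of 0.139, 0.424 and 0.222). One with a mean of 4.53 changed by -0.01, -0.03, -0.13 and -0.10. With the mean of all Sulf1 probe sets the 6C3 changes were 0.52 in CD105+ cells (adjusted p = 0.159) and 0.50 in CD105- cells (adjusted p = 0.112).

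Sulf2 averaged 13.07 ± 0.12 in Thy+6C3-CD105- arrays, 12.94 ± 0.20 in Thy-6C3+CD105- arrays and 12.38 ± 0.26 in Thy-6C3-CD105- arrays. Its change was 0.68 with Thy (1.61-fold higher, adjusted p = 0.00460) and 0.56 with 6C3 (1.47-fold higher, adjusted p = 0.0492), the second lost without any one of 15 arrays, most of all without Thy-6C3-CD105- replicate 2 (adjusted p = 0.192). The Thy call was lost on values as deposited (0.46, adjusted p = 0.0576) and with array medians set equal (0.32, adjusted p = 0.207). The 6C3 call was lost under those scalings too (0.47 and 0.30, adjusted p = 0.176 and 0.490). In CD105+ cells the changes of 0.31 with Thy (adjusted p = 0.301) and 0.36 with 6C3 (adjusted p = 0.491) did not pass.

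Chst5, an N-acetylglucosamine 6-O-sulfotransferase that takes part in making keratan sulfate in the mouse cornea, showed the largest rise of the group. It read 9.76, 10.18 and 10.26 on Thy+6C3-CD105+ arrays, 9.14, 9.07 and 8.97 on Thy-6C3+CD105+ arrays and 7.88, 7.996 and 7.62 on Thy-6C3-CD105+ arrays. The CD105- arrays gave 10.99, 11.20 and 10.96 with Thy, 9.87, 9.02 and 9.52 with 6C3 and 7.84, 8.14 and 8.61 with neither. The 3 states formed separate bands in each CD105 state, Thy+ highest and Thy-6C3- lowest, the reverse of Chst11. The changes were 2.23 with Thy in CD105+ cells (SE 0.23, 4.70-fold higher, adjusted p = 5.88e-06), 2.85 in CD105- cells (7.20-fold higher, adjusted p = 2.78e-07), 1.23 with 6C3 in CD105+ cells (2.34-fold higher, adjusted p = 0.00883) and 1.27 in CD105- cells (2.41-fold higher, adjusted p = 0.00353). The 6C3 call of CD105+ cells did not pass without Thy-6C3-CD105+ replicate 3 (adjusted p = 0.0701) or without Thy-6C3+CD105+ replicate 2. With array medians set equal the 6C3 calls missed the threshold in CD105+ cells (1.31, adjusted p = 0.0533) and in CD105- cells (1.08, adjusted p = 0.0849).

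Chst1, a galactose 6-O-sulfotransferase of keratan sulfate, fell in 1 step. It read 7.55, 6.34 and 5.82 on Thy+6C3-CD105- arrays, against 7.77, 8.12 and 8.05 on Thy-6C3-CD105- arrays. The groups did not overlap, but the Thy+ arrays were widely spread. The change of -1.41 (SE 0.44, 2.66-fold lower, adjusted p = 0.0350) was lost without Thy+6C3-CD105- replicate 2 or 3 or any one of the Thy-6C3-CD105- arrays, and was -1.04 (adjusted p = 0.163) without Thy+6C3-CD105- replicate 3. Chst1 did not pass the F-test over the 6 populations (adjusted p = 0.259). Chst2 and Chst4, which act on N-acetylglucosamine, Chst8 and Chst9, which sulfate N-acetylgalactosamine of N-glycans, and Chst10, which completes the HNK-1 epitope, were called in 0 steps. Chst9 varied least of the genes never called, over a range of 0.37, and Chsy3 most, over 4.10. The 29 genes called in no step had a median range of 1.31 over the 18 arrays, against 2.45 for the 18 that were called at least once. Calls and ranges come from the same arrays, so a wider range of called genes is built in.

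**Figure D4:**
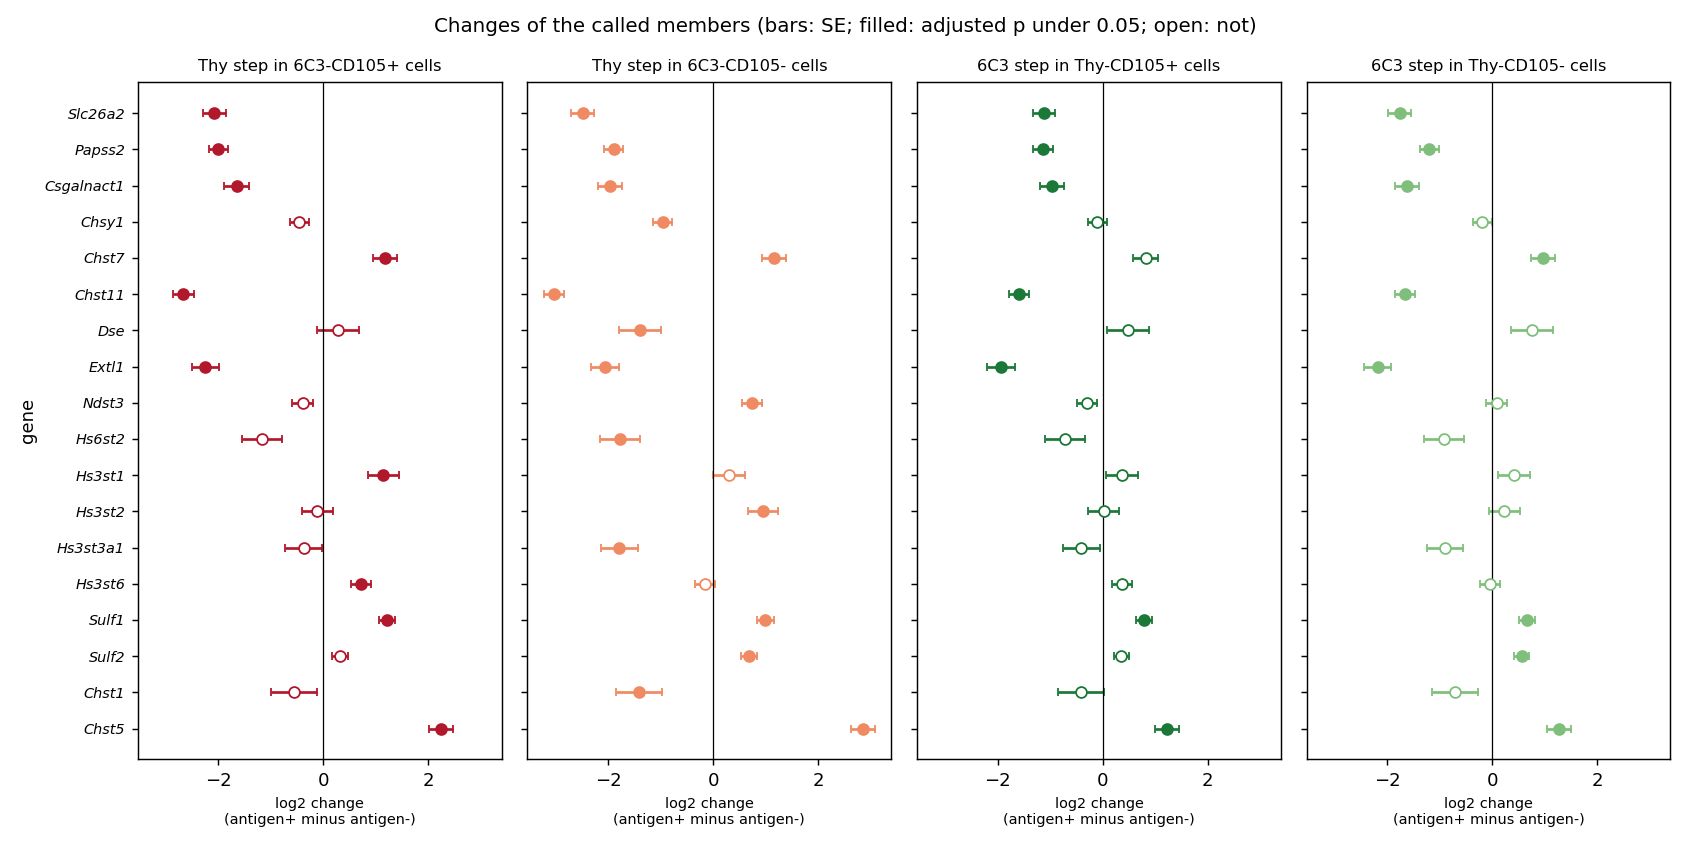
Log2 change (points) with its standard error (bars) of the 18 genes called in at least 1 step, in the Thy and 6C3 steps of CD105+ and CD105- cells, with filled points for calls at an adjusted p under 0.05. Slc26a2, Papss2, Csgalnact1, Chst11 and Extl1 lay below 0 and filled in all 4 steps, Chst5 and Sulf1 lay above 0 and filled in all 4, and the filled points of heparan sulfotransferases lay in the Thy steps.

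The CD105 steps called few of these genes. In Thy+6C3- cells 13 of the 47 had an unadjusted p under 0.05 (limma). The share of all genes under that unadjusted threshold was not counted, so such counts stand without a background. In Thy+6C3- cells 0 rose and 2 fell with CD105, 4.26% of the 47 against 1.02% of all genes (0.824% higher and 0.192% lower): Chst5 changed by -0.98 (adjusted p = 0.0490) and Ndst3 by -0.87 (adjusted p = 0.0428). Both calls were lost without any one of 12 and 11 arrays, most of all without Thy+6C3-CD105+ replicate 2, where the adjusted p was 0.147 for Chst5 and 0.219 for Ndst3, and both were lost without Thy+6C3-CD105- replicate 3, the array with the high Eng level. The Chst5 change was -0.61 (adjusted p = 0.141) on values as deposited and -0.46 (adjusted p = 0.295) with array medians set equal, and that of Ndst3 was -0.45 (adjusted p = 0.0930) with the mean of probe sets. In Thy-6C3- cells limma called 0 of 47 (0.0055% of all genes), with 2 genes at an unadjusted p under 0.05, and in Thy-6C3+ cells 0 of 47 (0% of all genes), with 1 such gene, and no other setting run made a call in either. In Thy-6C3- cells Slc26a2 changed by -0.66 with CD105 (adjusted p = 1), though the 3 CD105+ arrays lay below the 3 CD105- arrays.

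Several genes were called in one CD105 state and not in the other, so the difference between steps was tested itself. limma called 0 of 47 genes for a difference of the Thy step between CD105+ and CD105- cells (0.269% of all genes). For a difference of the 6C3 step it called 0 of 47 (0% of all genes). An unadjusted p under 0.05 was found for 6 and 1 of the 47, and the share of all genes at that threshold was not counted. The largest differences of the Thy step, in CD105+ minus CD105- cells, were 1.67 for Dse (adjusted p = 0.233) and 1.41 for Hs3st3a1 (adjusted p = 0.233), followed by -1.14 for Ndst3 (adjusted p = 0.112). With array weights Dse (1.48, adjusted p = 0.0452) and Ndst3 (-1.13, adjusted p = 0.0242) passed. Arrays also formed 2 sets by the signal of their poly-A control probe sets, and with a block for these sets Ndst3 passed (-1.23, adjusted p = 0.0373).

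Thy+ and 6C3+ cells were also set against each other, a comparison added after the values were seen. In CD105+ cells 1 of 47 genes was higher and 3 were lower in Thy+ than in 6C3+ cells, where 2.59% of all genes passed (1.71% higher and 0.879% lower): Chst5 differed by 1.004 (adjusted p = 0.0211), Slc26a2 by -0.96 (adjusted p = 0.0185), Papss2 by -0.86 (adjusted p = 0.0116) and Chst11 by -1.08 (adjusted p = 0.00285). No single array removed the Chst11 call, but the mean of probe sets did. The Papss2 call did not pass without Thy+6C3-CD105+ replicate 1 or Thy-6C3+CD105+ replicate 1, and the Chst5 and Slc26a2 calls each without Thy+6C3-CD105+ replicate 2 or 3 or any one of the Thy-6C3+CD105+ arrays, and both on values as deposited and with array medians set equal (Slc26a2 with the mean of probe sets too). In CD105- cells 1 was higher and 4 were lower, against 2.24% of all genes (0.918% higher and 1.32% lower). Chst5 differed by 1.58 (adjusted p = 0.000683), Chst11 by -1.36 (adjusted p = 0.000560), Dse by -2.15 (adjusted p = 0.00565), Chsy3 by -2.22 (adjusted p = 0.00987) and Chsy1 by -0.77 (adjusted p = 0.0336), where Slc26a2 (-0.72, adjusted p = 0.0979) and Papss2 (-0.70, adjusted p = 0.0567) did not pass. The Chsy3 call did not pass without Thy-6C3+CD105- replicate 2 (adjusted p = 0.0661) and the Chsy1 call without any one of 5 arrays, most of all Thy+6C3-CD105- replicate 3 (adjusted p = 0.110). All 5 calls of CD105- cells were lost with grouping by title, which leaves 1 array in Thy-6C3+CD105-, and in a fit on the compared populations alone, and the Chsy1 call was lost with array medians set equal and with array weights too.

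Genes that act before and beside these enzymes were counted in lists chosen by their known roles. Of 5 linkage region genes, the xylose kinase Fam20b fell in all 4 Thy and 6C3 steps and no other was called. Fam20b read 9.64, 9.74 and 9.87 on Thy+6C3-CD105+ arrays and 10.33, 9.89 and 10.09 on Thy-6C3+CD105+ arrays, against 10.86, 11.06 and 11.24 on Thy-6C3-CD105+ arrays, and changed by -1.30 (adjusted p = 0.000366) and -0.95 (adjusted p = 0.0215). In CD105- cells it changed by -1.58 with Thy (adjusted p = 5.01e-05) and by -1.003 with 6C3 (adjusted p = 0.00838). Of 12 measured genes of nucleotide sugar and sulfate donor supply, 0 rose and 2, 5, 0 and 1 fell in the Thy steps of CD105+ and CD105- cells and the 6C3 steps of CD105+ and CD105- cells. Slc35b2, which moves PAPS into the Golgi, was the other call in the Thy step of CD105+ cells, at -0.64. Slc35d1, a nucleotide sugar transporter of the endoplasmic reticulum needed for chondroitin sulfate in mouse cartilage, read 6.83, 6.37 and 5.69 on Thy+6C3-CD105- arrays, against 8.74, 9.19 and 9.47 on Thy-6C3-CD105- arrays, and fell by 2.84 with Thy there, by 1.36 with Thy in CD105+ cells and by 1.69 with 6C3 in CD105- cells. Bpnt1, which degrades the by-product of sulfate transfer, fell by 1.59 in the Thy step of CD105- cells, and Gfpt1 (1.55) and the UDP-glucose dehydrogenase Ugdh (1.53) fell in the same step.

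Other parts of glycosaminoglycan metabolism are read against the 6.66%, 18%, 1.36% and 2.74% of all genes called in the Thy steps of CD105+ and CD105- cells and the 6C3 steps of CD105+ and CD105- cells. Of 5 further modification enzymes only Glce, the heparan epimerase, was called, at -1.33 in the Thy step of CD105- cells. Of 3 hyaluronan synthases Has2 changed by -1.43 and -1.90 in the Thy steps of CD105+ and CD105- cells and was called in neither 6C3 step. Of 14 measured lysosomal degradation genes 1, Naglu, was called, at 1.09 in the Thy step of CD105- cells. Among 19 core proteins of chondroitin, dermatan or keratan sulfate proteoglycans, 2, 4, 0 and 1 rose and 7, 8, 3 and 4 fell in those 4 steps. The largest falls were those of Snorc, a chondrocyte transmembrane proteoglycan (-4.28, -3.75, -3.07 and -3.82), the collagen IX chain Col9a2 (-3.88, -4.57, -2.28 and -2.99) and epiphycan (Epyc, -3.81, -3.16, -5.62 and -5.35). The keratan sulfate core protein keratocan (Kera) was the largest rise, at 3.02 and 2.75 in the Thy steps and 1.09 in the 6C3 step of CD105- cells. Aggrecan (Acan), named for its place in cartilage after its values were seen, changed by -0.92 and -1.16 in the Thy steps. Kera averaged 12.46 in Thy+6C3-CD105+ arrays and 12.88 in Thy+6C3-CD105- arrays, against 9.45 and 10.13 in the matching Thy-6C3- arrays. Of 14 heparan sulfate core proteins, Col18a1 rose by 2.31 and 1.91 in the Thy steps and Gpc6 fell by 2.25 in that of CD105- cells.

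Markers of other cell types moved in the same steps. All 10 chondrocyte genes fell in both Thy steps, and 2 and 5 of 10 fell in the 6C3 steps of CD105+ and CD105- cells. All 7 tendon and fibrous markers were measured, and their median averaged 12.5 and 12.4 in the CD105+ and CD105- arrays of Thy+ cells and 10.9 and 11.1 in the matching 6C3+ arrays, against 10.03 and 10.1 in the matching Thy-6C3- arrays. The median of 7 pericyte genes averaged 10.04 in Thy+6C3-CD105+ arrays and 7.11 to 7.74 in the other populations. That of 6 keratinocyte genes lay between 5.91 and 7.20 in Thy+6C3-CD105- arrays and averaged 4.92 to 5.25 elsewhere, and 3 of the 6 rose in the Thy step of CD105- cells. The median of the 5 measured of 8 osteoblast genes averaged 5.39 and 4.10 in the CD105+ and CD105- arrays of Thy+ cells and 6.85 and 6.35 in those of 6C3+ cells, against 7.41 and 7.99 in those of Thy-6C3- cells. That of the 3 measured of 5 Schwann cell genes averaged 6.77 and 7.39 in the CD105+ and CD105- arrays of Thy+ cells and 6.20 and 6.29 in those of 6C3+ cells, against 6.52 and 6.22 in those of Thy-6C3- cells, with 1 gene higher in each Thy step. Of 7 endothelial genes 2 and 1 rose in the Thy steps of CD105+ and CD105- cells, with Tek, which encodes the Tie2 of the gate, at 5.96 and 6.39 with Thy, against 4.84 and 4.87 with neither antigen. Of 7 myeloid genes 2 rose in the Thy step of CD105- cells, with Laptm5 at 8.73 in Thy+6C3-CD105- arrays, against 6.44 in Thy-6C3-CD105- arrays. Of 6 skeletal muscle genes 1 rose in that step. Tek and Laptm5 were named after their values were seen. The part of these cell types in the changes of the 47 genes was not tested.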

How the data were processed

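The deposited table holds log2 expression levels of 45101 Affymetrix probe sets on 19 arrays, made by the authors from scanned arrays, and the method that turned scans into levels is not given in the sources used. Per the labels' protocols, RNA was amplified before labelling. The values spanned 2.55 to 14.6 with array medians from 5.60 to 6.02, and arrays were quantile normalized over all 19 because medians differed by more than 0.1. Control probe sets (64) were left out. Of the others 34945 carried 1 gene symbol, 932 several and 9160 none in the platform annotation. Only those with 1 symbol were used, so Hs3st5, whose probe set names a further gene, was not analysed here. Xylt1 and Ndst1 were also absent from the genes analysed.

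limma 3.58.1 in R 4.3.3 fitted 1 mean per population over the 18 neonatal arrays (12 residual and 5.38 prior degrees of freedom), with eBayes and a trend, two-sided tests and Benjamini-Hochberg adjustment over all 18193 genes within each contrast. A gene was called at an adjusted p under 0.05. No filter on low values was applied, and precision is limited by the number of arrays. The fit was tested on simulated data with known changes.

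Members and gene lists were chosen with earlier results of these data known. Values on at least the compared arrays are given for members called in a step with a change of at least 1. The groups also had to be free of overlap, and at most 6 members per role were taken. Chsy1, with a change of -0.95, is given besides. Of the other pathway lists at most 4 called genes per step were named, those with the largest changes, and Acan was named in addition. Alternatives changed the scaling, the probe set, the low-value filter, the spread model, the arrays in the fit, the grouping and the blocks. Poly-A control probe sets, whose RNA is added before amplification, split the arrays into 11 with high and 7 with low signal, each set with arrays of every population.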

Additional observations from a re-analysis of the deposited data

Results flagged for a closer look

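The adult array, labelled Thy+6C3+CD105+, entered no comparison. On it 6 of the 47 genes lay above the range of all 18 neonatal arrays (12.8%, where 11.7% of all genes did). That share was close to that of all genes, so the count is no trait of this group and the values are only listed. The 3-O-sulfotransferases Hs3st3a1 read 8.77 (neonatal maximum 7.26) and Hs3st3b1 read 7.74 (7.33). In the chondroitin branch Chst15 read 10.96 (9.59), Csgalnact2 10.97 (10.54) and Chst7 8.25 (7.85). Chst2 read 7.25 (7.08). With 1 array there is no replicate check, the label fields name both limbs and sternum with ear as its tissue, and age, tissue and sorted state cannot be told apart.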

How the results depend on the processing

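Of the 44 calls, 37 were kept on values as deposited, 33 with array medians set equal, 36 with the mean of probe sets, 38 of 39 among genes at or above the median gene, 42 with array weights, 41 with the replicate block, 44 with the poly-A set as a block, 40 with grouping by title, 31 with the compared populations only and 18 in the high poly-A set alone, the last chosen after seeing the data. Within both poly-A sets all 44 kept their sign, and none reversed in any setting run. Array weights called 16 genes in the Thy step of CD105+ cells, 8 in the CD105 step of Thy+6C3- cells and 2 for the difference between steps, where the poly-A block called 1. The compared populations alone gave 10 in the Thy step and 5 in the 6C3 step of CD105- cells and 0 in the CD105 step of Thy+6C3- cells. The high poly-A set gave 7 and 1 in the Thy and 6C3 steps of CD105- cells, 3 in the 6C3 step of CD105+ cells, 0 in the CD105 step of Thy+6C3- cells and 8 by F-test (15 before, 31.9% against 10.1% of all genes). In the 6C3 step of CD105+ cells equal medians gave 3 and the mean of probe sets 4. In the CD105 step of Thy+6C3- cells the values as deposited and the mean of probe sets gave 1 each and genes at or above the median gene 0. Leaving out 1 array gave 8 to 11 and 12 to 20 in the Thy steps of CD105+ and CD105- cells, 3 to 7 (3 without Thy-6C3-CD105+ replicate 3) and 6 to 10 in the 6C3 steps, 0 to 2 in the CD105 step of Thy+6C3- cells, 0 to 0 in the other CD105 steps and for the difference between steps, and 12 to 16 by F-test. Without Thy+6C3-CD105- replicate 3 the Thy step of CD105- cells called 5 higher and 8 lower. Deviations of same-numbered arrays correlated at -0.56 to 0.67, over 0.1 in 19 of 45 pairs. Their median was 0.03, against 0.01 for arrays of different numbers. With 3 arrays per population this check cannot decide whether replicate numbers pair the samples. The replicate block gave 10 and 18 in the Thy steps, 6 and 8 in the 6C3 steps, 3 in the CD105 step of Thy+6C3- cells and 14 by F-test. The cause of these changes was not tested. The F-test was not run on compared populations only.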

Other observations

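On the adult array 8 of the 47 genes lay below the range of the neonatal arrays (17.0%, where 14.2% of all genes did) and 33 lay within it. The share below was also close to that of all genes. Both endosulfatases were among the 8: Sulf1 read 9.004 (neonatal minimum 10.03) and Sulf2 read 11.10 (12.11). The heparan sulfate polymerase genes Ext1 and Ext2 read 9.03 (9.67) and 9.76 (9.99). Hs6st2 read 4.59 (6.28), Hs3st6 5.84 (6.23), Chst14 7.87 (8.39) and Chst5 7.36 (7.62).

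Of the 44 calls in the 7 steps, 26 belonged to genes with several probe sets. In 18 of these 26 all other probe sets of the gene changed with the same sign, and in 13 at least 1 other probe set passed the test in the same direction.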
